A study of Mus musculus with 6 samples.

Results

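Plasma cell program genes were described by 10 genes, of 36976 genes in the table, chosen by name with their values in these same libraries already known. Igj, Igkc and Ighm encode antibody chains. Prdm1, Irf4 and Xbp1 encode transcription factors of plasma cells, and Sdc1, Tnfrsf17, Cd79a and Cd38 encode surface proteins. All 10 were present in the table, and all 10 passed the filter on low values. Because the genotype difference itself was among the values the genes were selected on, their differences are given below as a description, with no p for any of them.

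A plasma cell is the end stage of the B cell lineage and secretes antibody. IRF4 and Blimp-1, the product of Prdm1, drive the step from B cell to plasma cell, and Blimp-1 switches off much of the earlier B cell program, including Pax5. XBP1, activated through splicing of its mRNA by the unfolded protein response, expands the endoplasmic reticulum and the secretory machinery. Bone marrow is the main home of long-lived plasma cells.

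RNA-Seq was performed on LT-CML stem cells, the most primitive cells of a mouse model of chronic myeloid leukaemia. All animals carried SCL-tTA and TRE-BCR-ABL1, so that the Scl enhancer drove the tetracycline transactivator and withdrawal of doxycycline switched on BCR-ABL1. Bone marrow was taken 5 weeks after that withdrawal and sorted for CD150+CD48-CD135- cells within the Lineage-Sca-1+cKit+ gate. The Gdpd3-/- mice carried in addition a CRISPR/Cas9 deletion in Gdpd3, which encodes a lysophospholipase D, and the controls were Gdpd3+/+. The Gdpd3+/+ cells came from 22 males and 12 females, the Gdpd3-/- cells from 5 males and 5 females, and each genotype gave 3 libraries, numbered 1, 2 and 3 for Gdpd3+/+ and 5, 6 and 7 for Gdpd3-/-. How the mice were divided among the libraries is not given in the sources used here. The lineage antibodies of the sort included B220 but none against CD138, the protein of Sdc1.

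Depth, inferred from the steps between low values, was about 49800000 to 62800000 fragments in the Gdpd3+/+ libraries and 21300000 to 36400000 fragments in the Gdpd3-/- libraries. Levels are FPKM, fragments per kilobase of gene length relative to the total over all genes of the library. Gdpd3 had FPKM of 7.30, 3.29 and 2.95 in Gdpd3+/+ and of 0.110, 0.0129 and 0.681 in Gdpd3-/-, with no overlap. Its adjusted p was 0.0588 by limma, a linear model fitted to all genes with Benjamini-Hochberg adjustment, and since the deletion removes few bases, the mRNA level is only an indirect check of the genotype. The Gdpd3+/+ libraries resembled each other closely (Pearson r over genes of 0.974 to 0.979). Among the Gdpd3-/- libraries r was 0.808 to 0.865, and replicate 7 was nearer to the Gdpd3+/+ libraries (0.930 to 0.933) than to its own group. Of 15 skeletal muscle markers, 15 were higher in each Gdpd3-/- library than in all Gdpd3+/+ libraries. The share of all genes for which this held was not computed. The summed FPKM of the muscle markers was 862 to 1280 in Gdpd3+/+ and 11139, 16035 and 2124 in Gdpd3-/-. Markers of long-term haematopoietic stem cells, such as Kit, Slamf1 and Procr, were detected in every library.

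Igkc, the constant part of the kappa light chain, had the highest FPKM of all genes in each of the 6 libraries. The end of its coding exon is shown because this short stretch, shared by all kappa chains whatever their variable region, carries the largest value in the data. Its 3 in-frame cysteine codons are in capitals. The first and second pair within the domain, and the last joins the light chain to the heavy chain. The stretch is chr6:70726455-70726754 of GRCm38 on the + strand, from GENCODE M21.
Igkc constant exon: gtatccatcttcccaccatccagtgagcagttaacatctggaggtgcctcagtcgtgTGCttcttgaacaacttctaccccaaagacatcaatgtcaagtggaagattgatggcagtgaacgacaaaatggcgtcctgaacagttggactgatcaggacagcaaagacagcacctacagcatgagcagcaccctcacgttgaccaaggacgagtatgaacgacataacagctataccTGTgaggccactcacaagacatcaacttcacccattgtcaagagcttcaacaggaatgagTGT

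Igkc was lower in Gdpd3-/- than in Gdpd3+/+ LT-CML stem cells. Its FPKM was 78292, 89742 and 96105 in Gdpd3+/+ and 45357, 30660 and 49357 in Gdpd3-/-. The ranges did not meet, with means of 88047 ± 9027 and 41791 ± 9845 (SD, n = 3 each). On the log2(FPKM + 0.1) scale the difference, Gdpd3-/- minus Gdpd3+/+, was -1.10 ± 0.37 (SE), but 0 under quantile normalization, which gives the highest gene of every library 1 value. The deposited table places Igkc at chr6:70676429-70676751, as 1 exon block of 323 bases (mm9, the build in the submitters' processing notes).

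Ighm encodes the constant part of the mu heavy chain of IgM and showed the largest difference of the antibody chains on the scale of the deposited values. It had 37021, 34512 and 37136 FPKM in Gdpd3+/+ and 13047, 8439 and 17567 FPKM in Gdpd3-/-. The lowest Gdpd3+/+ library was thus well above the highest Gdpd3-/- library. The log2 difference was -1.54 ± 0.33 (SE), a 2.91-fold lower level. Ighm ranked between 3 and 8 among all genes in every library. It lies at chr12:114659078-114660941 on the minus strand of the same build.

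Igj, now named Jchain, encodes the joining chain that links IgM into pentamers and IgA into dimers. Its FPKM was 2088, 1958 and 2551 in Gdpd3+/+ and 915, 882 and 1692 in Gdpd3-/-. Replicate 7 stood apart from the other Gdpd3-/- libraries but remained below the lowest Gdpd3+/+ library. The log2 difference was -0.98 ± 0.27 (SE), and the gene lies at chr5:88949537-88956916 on the minus strand.

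Together Igj, Igkc and Ighm took 7.97%, 7.97% and 8.64% of the gene-assigned signal in Gdpd3+/+ and 3.41%, 2.30% and 4.30% in Gdpd3-/-. All 257 immunoglobulin genes, recognised by name or by type and locus, took 12.4% to 13.4% in Gdpd3+/+ and 3.81% to 6.48% in Gdpd3-/-. As FPKM is a share of the library, a large share held by one set of genes lowers the values of all others. In bulk RNA a lower number of cells of one type and less RNA per cell cannot be told apart.

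**Figure D1:**
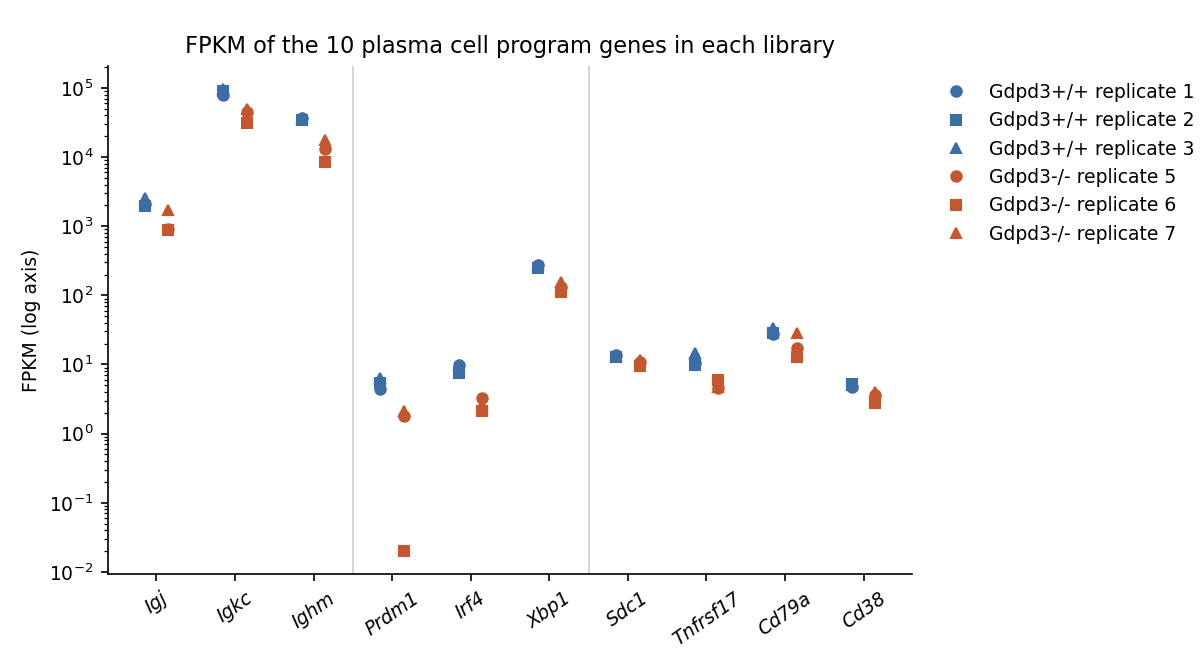
FPKM (log axis) of the 10 genes in each library. Colour gives the genotype and the symbol the replicate, and grey lines separate antibody chains, transcription factors and surface proteins. The Gdpd3-/- points lie below all Gdpd3+/+ points for each gene except Cd79a, and Prdm1 in Gdpd3-/- replicate 6 sits alone at 0.0200.

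The transcription factors lay far below the chains in level. Xbp1, the secretory regulator, had 275, 246 and 275 FPKM in Gdpd3+/+ and 133, 113 and 158 in Gdpd3-/-. The groups were clearly separated, by a log2 difference of -0.99 ± 0.14 (SE). The 2 spliced forms of Xbp1 mRNA are not distinguished by a gene-level value. The gene lies at chr11:5420662-5425896 on the + strand.

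Irf4 encodes the factor whose high level favours plasma cell fate over the germinal centre fate. Its FPKM was 9.84, 7.57 and 9.70 in Gdpd3+/+ and 3.23, 2.10 and 2.57 in Gdpd3-/-. Even the highest Gdpd3-/- value was under the lowest Gdpd3+/+ value, and the log2 difference was -1.75 ± 0.22 (SE), or 3.36-fold. Irf4 lies at chr13:30841095-30858796 on the + strand.

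Prdm1 encodes Blimp-1, the repressor that closes the B cell program. It had 4.46, 5.31 and 6.39 FPKM in Gdpd3+/+ and 1.81, 0.0200 and 2.12 FPKM in Gdpd3-/-. The value of replicate 6 rests on 4 fragments, against 212 and 292 in the other Gdpd3-/- libraries and 1220 to 2152 in Gdpd3+/+. The log2 difference was -2.77 ± 1.09 (SE) with that library and -1.40 without it, so its size depended on replicate 6 while its direction did not. Prdm1 lies at chr10:44156983-44248307 on the minus strand.

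Bases next to the RefSeq start of Igj, Irf4 and Xbp1 are shown, as a chain and 2 regulators that were lower together. RefSeq promoters (GRCm38.p6) were matched for 8 of the 10 genes and were not matched for Igkc and Ighm. The window ran from 250 bases before to 50 after the start, and both strands were searched. The octamer of immunoglobulin promoters, ATGCAAAT, was found in 0 of 8 against 1.75% of 32544 promoters. A core bound by Blimp-1, GTGAAAGT, was found in 0 of 8 against 0.851%, and an XBP1 core, CCACGTCA, in 0 of 8 against 0.682%. TATAAA, searched after the other motifs had been counted, was found in 2 of 8, Irf4 and Tnfrsf17, against 13.6%. These are matches of letters in one window only. In the 120 bases upstream shown here, capitals mark TATAAA, which starts 26 bases before the start of Irf4. They are chr5:88527898-88528017 (minus strand), chr13:30749113-30749232 (+ strand) and chr11:5520521-5520640 (+ strand).
Igj upstream: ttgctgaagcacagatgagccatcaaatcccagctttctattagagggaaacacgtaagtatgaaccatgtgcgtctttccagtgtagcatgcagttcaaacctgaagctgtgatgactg
Irf4 upstream: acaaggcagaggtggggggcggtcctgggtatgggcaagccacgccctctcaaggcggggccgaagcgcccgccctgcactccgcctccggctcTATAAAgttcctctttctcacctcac
Xbp1 upstream: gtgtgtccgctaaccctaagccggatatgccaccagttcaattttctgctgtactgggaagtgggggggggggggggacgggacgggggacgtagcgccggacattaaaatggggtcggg

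Among the surface proteins, Tnfrsf17 encodes BCMA, the receptor through which APRIL and BAFF sustain plasma cells. Its FPKM was 10.4, 9.82 and 14.6 in Gdpd3+/+ and 4.54, 6.06 and 4.78 in Gdpd3-/-. The groups did not overlap, and the log2 difference was -1.15 ± 0.21 (SE). Tnfrsf17 lies at chr16:11313905-11320167 on the + strand.

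Sdc1 encodes syndecan-1 (CD138), the standard surface marker of plasma cells, which epithelial cells also express. It had 13.8, 12.8 and 13.2 FPKM in Gdpd3+/+ and 10.8, 9.49 and 11.5 FPKM in Gdpd3-/-. The groups were separate, but the log2 difference of -0.33 ± 0.13 (SE) was the smallest among the 10 genes on the scale of the deposited values. Sdc1 lies at chr12:8778129-8800521 on the + strand.

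Cd38 encodes an ectoenzyme that degrades NAD+ and is found on many blood cells besides plasma cells. Its FPKM was 4.77, 5.21 and 5.08 in Gdpd3+/+ and 3.65, 2.80 and 3.999 in Gdpd3-/-. All Gdpd3-/- values were lower, by -0.53 ± 0.20 (SE) on the log2 scale. It lies at chr5:44260048-44303614 on the + strand.

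Cd79a encodes the Ig-alpha signalling chain of the B cell receptor and was the only one of the 10 genes whose groups overlapped. It had 27.7, 28.4 and 33.7 FPKM in Gdpd3+/+ and 17.2, 12.7 and 28.9 FPKM in Gdpd3-/-, and replicate 7 lay among the Gdpd3+/+ values. The log2 difference was -0.68 ± 0.29 (SE). Replicate 7 also had the highest FPKM of Vpreb3 (11.1 against 2.84 and 1.63 in the other Gdpd3-/- libraries), a protein of early B cells, and the part of such cells in the Cd79a value was not tested. Its partner chain, Cd79b, went the other way, with 39.5, 39.9 and 39.8 FPKM in Gdpd3+/+ and 50.3, 58.7 and 50.4 in Gdpd3-/-, at a limma adjusted p of 0.0863. Cd79a lies at chr7:25682400-25687216 on the + strand.

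**Figure D2:**
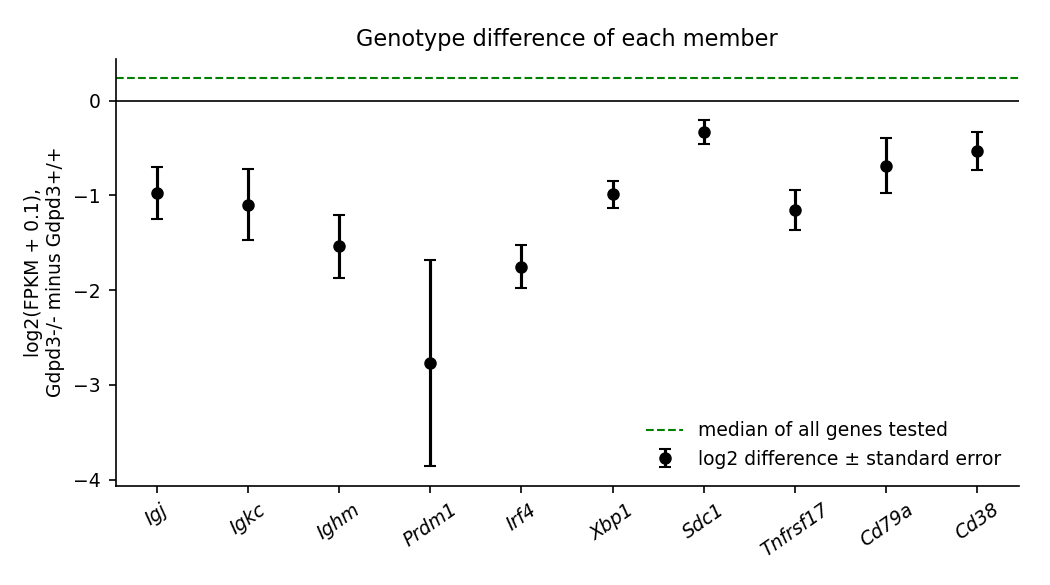
Difference of log2(FPKM + 0.1), Gdpd3-/- minus Gdpd3+/+, for each gene; points are the fitted difference, bars its standard error, and the dashed line the median of all genes tested. On the scale of the deposited values all 10 points lie below 0 and below the dashed line at 0.24, from -0.33 for Sdc1 to -2.77 for Prdm1.

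Over the 10 genes the median log2 difference was -1.04, while over the 24689 genes tested it was 0.24. By role, the median was -1.10 for the 3 chains, -1.75 for the 3 transcription factors and -0.61 for the 4 surface proteins. In 9 of the 10 genes every Gdpd3-/- library was below every Gdpd3+/+ library, which held for 8.27% of all genes tested. The genes were selected on this contrast, so nothing further is read from these counts.

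Within Gdpd3-/- the libraries were ordered alike across most of the genes. Replicate 6 was lowest for 9 of the 10, the exception being Tnfrsf17, for which replicate 5 was lowest. Replicate 7 was highest for 8 of the 10, the exceptions being Irf4 and Tnfrsf17. The coefficient of variation was larger in Gdpd3-/- than in Gdpd3+/+ for 9 of the 10 genes. For Ighm it was 35.1% against 4.09%, and only for Tnfrsf17 was it smaller, at 15.9% against 22.4%. The share of all genes with a larger coefficient in Gdpd3-/- was not computed. The Gdpd3-/- libraries were also less alike over genes, with Pearson r of 0.808 to 0.865 against 0.974 to 0.979 in Gdpd3+/+. The summed muscle markers were highest in replicate 6 and lowest in replicate 7 among the Gdpd3-/- libraries, and their part in the order of the libraries was not tested.

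Levels per length ran from Igkc through Ighm, Igj, Xbp1 and Cd79a to Sdc1 in both genotypes. Below Sdc1 the order in Gdpd3+/+ was Tnfrsf17, Irf4, Prdm1 and Cd38, and the libraries of Sdc1 and Tnfrsf17, of Tnfrsf17 and Irf4, and of Prdm1 and Cd38 overlapped. In Gdpd3-/- it was Tnfrsf17, Cd38, Irf4 and Prdm1, and the last 3 overlapped as neighbours.

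The ratio of chains to factors within a library does not move with the scaling of that library. The summed FPKM of Igj, Igkc and Ighm was 406, 487 and 467 times that of Prdm1, Irf4 and Xbp1 in Gdpd3+/+ and 431, 347 and 420 times in Gdpd3-/-. These ranges overlapped, with a log2 difference of -0.18. That sum is mostly Igkc and Ighm over Xbp1. With each gene given equal weight, as the mean of log2(FPKM + 0.1), the chains were higher relative to the factors in Gdpd3-/- by 0.63, and by 0.31 without replicate 6, in which Prdm1 was lowest.

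Single ratios show where the genes parted. Igkc was 285, 365 and 350 times Xbp1 in Gdpd3+/+ and 342, 271 and 311 times Xbp1 in Gdpd3-/-, so the groups overlapped. Ighm was 135, 140 and 135 times Xbp1 in Gdpd3+/+ and 98.4, 74.7 and 111 times in Gdpd3-/-, without overlap. Igj relative to Xbp1 overlapped again, with means of 8.28 ± 0.89 and 8.46 ± 1.97 (SD, n = 3 each).

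Between the chains, Igkc was 2.11, 2.60 and 2.59 times Ighm in Gdpd3+/+ and 3.48, 3.63 and 2.81 times Ighm in Gdpd3-/-. The kappa chain was thus higher relative to the mu chain in each Gdpd3-/- library. Between the factors, Irf4 per 100 units of Xbp1 was 3.58, 3.08 and 3.53 in Gdpd3+/+ and 2.44, 1.86 and 1.62 in Gdpd3-/-. Igkc relative to Irf4 was higher in Gdpd3-/-, with means of 15934 ± 2824 against 9907 ± 1949 (SD, n = 3 each) and no overlap, while Ighm relative to Irf4 overlapped.

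**Figure D3:**
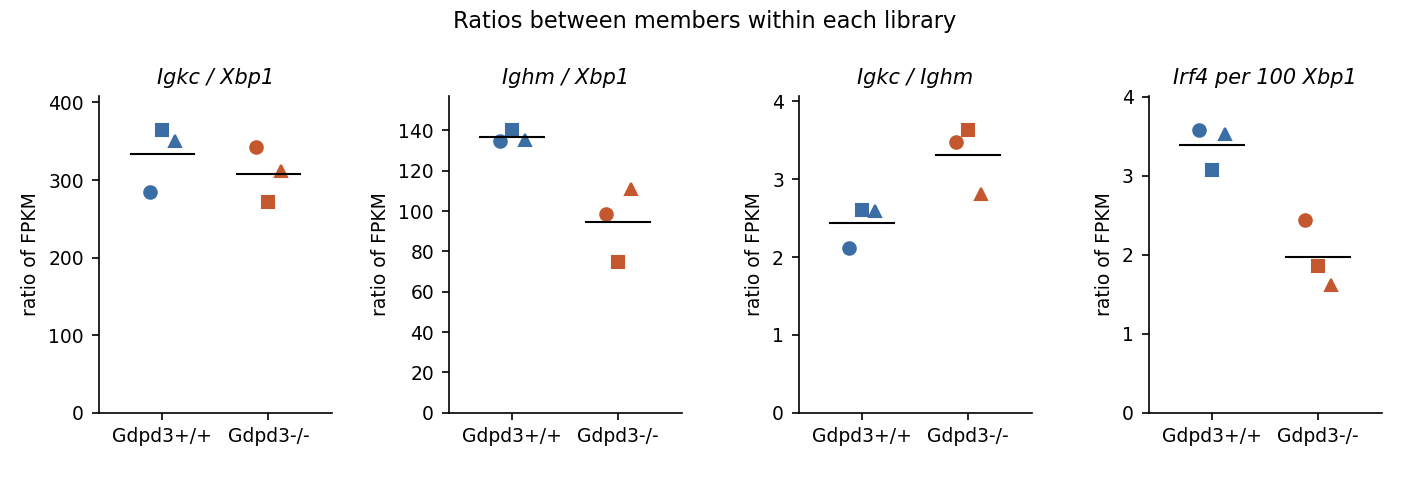
Ratios of FPKM between members within each library, on axes from 0; symbols are replicates as in the plot of FPKM by gene, and bars are group means of 3 libraries. Igkc over Xbp1 overlaps between genotypes, whereas Ighm over Xbp1, Igkc over Ighm and Irf4 per 100 Xbp1 do not.

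Of 18 other genes listed for plasma cells, not all of them specific to these cells, 3 fell, 0 rose and 15 were not called. A gene was said to fall or rise at an adjusted p under 0.05 in the limma fit over all genes, in which 0.616% of all genes fell and 1.09% rose. The list had a median log2 difference of -0.68 against 0.24 over all genes. In 11 of the 18 the Gdpd3-/- libraries were all below the Gdpd3+/+ libraries, against 8.27% of all genes. In 2, Zbtb20 and Il6ra, they were all above, for which the share over all genes was not computed. Txndc5, a protein disulphide isomerase, fell by 1.33 on the log2 scale (limma adjusted p = 0.0275). Edem1, which directs misfolded glycoproteins to degradation, fell by 1.10 (adjusted p = 0.0321), and Mzb1, a chaperone of IgM assembly, by 0.88 (adjusted p = 0.0484). Without Gdpd3-/- replicate 5, 6 or 7 the number that fell was 1, 2 and 7. Over all genes it was then 103 of 23727, 179 of 23839 and 1049 of 24056 tested. With any 1 of the 3 Gdpd3+/+ libraries left out, limma called 0 genes of this and the other 10 lists. Over all genes it called 0 of 24887, 1 of 24855 and 21 of 24862 without Gdpd3+/+ replicate 1, 2 or 3. Unadjusted p was then under 0.05 for 3238 to 3525 of all genes.

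Of 24 genes of protein folding in the endoplasmic reticulum, 1 fell and 0 rose, with a median log2 difference of -0.34. Sel1l, a scaffold of the degradation complex of the endoplasmic reticulum, fell by 1.23 (limma adjusted p = 0.0287). Hspa5, the BiP chaperone, had 193, 200 and 201 FPKM in Gdpd3+/+ and 173, 124 and 228 in Gdpd3-/-, with overlap. Without Gdpd3-/- replicate 5, 6 or 7 the number that fell was 0, 1 and 12. Of all genes tested, 103 of 23727, 179 of 23839 and 1049 of 24056 then fell.

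Other immunoglobulin constant genes differed from library to library. Of the 11 listed, 7 were found under their names or identifiers, and of these 1 fell and 0 rose. Iglc2, a lambda light chain, had 467, 439 and 573 FPKM in Gdpd3+/+ and 114, 181 and 207 in Gdpd3-/- (log2 difference -1.59, limma adjusted p = 0.0362). That call was lost without Gdpd3-/- replicate 6, with low genes kept and without the intensity trend. Ighg2b had a log2 difference of -1.86 at an adjusted p of 0.0560.

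Ighg1, the constant part of IgG1, was 1838, 2122 and 2406 FPKM in Gdpd3+/+ and 3960, 1614 and 625 in Gdpd3-/-. Replicate 5 was above and replicates 6 and 7 were below all Gdpd3+/+ libraries, so the direction differed within the genotype. Iglc3 was 6969 FPKM in Gdpd3+/+ replicate 1 against 325 and 383 in the others of that group, and 843, 146 and 121 in Gdpd3-/-. Igkc and Ighm showed no such single high library. Near-identical copies among these genes can share reads, so their separate values are uncertain.

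**Figure D4:**
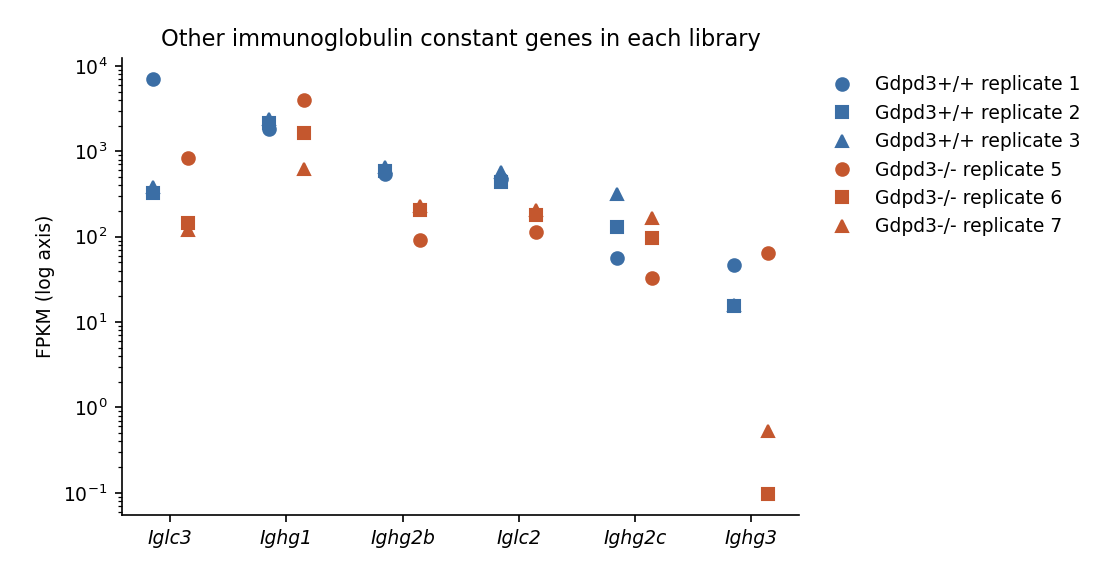
FPKM (log axis) of the other immunoglobulin constant genes with a Gdpd3+/+ mean above 1, in each library, with colour for the genotype and symbol for the replicate. Iglc2 and Ighg2b are separated by genotype, whereas Iglc3 is highest in Gdpd3+/+ replicate 1 and Ighg1 in Gdpd3-/- replicate 5.

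Among mature B cell genes, Pax5, the B cell identity factor that Blimp-1 represses, was close to 0. It had 0.0381 to 0.0704 FPKM in Gdpd3+/+ and 0, 0 and 0.174 in Gdpd3-/-. Of 20 mature B cell genes, 1 fell and 1 rose, with a median of -0.21. Fcrla, an intracellular Fc receptor-like protein of B cells, fell by 1.83 (limma adjusted p = 0.0394), and Cd72, a B cell co-receptor, rose by 0.77 (adjusted p = 0.0469). The call of Cd72 was lost under median-ratio scaling, quantile normalization and the total without immunoglobulin genes, and without Gdpd3-/- replicate 5 or 6. It was also lost with a pseudocount of 1, with low genes kept, with array weights and without the intensity trend. That of Fcrla was lost without replicate 5, with low genes kept and without the intensity trend. The summed FPKM of the list was 351 to 380 in Gdpd3+/+ and 318 to 345 in Gdpd3-/-.

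Of 10 genes of pro-B and pre-B cells, 2 rose and 0 fell, with a median log2 difference of 1.44. Dntt, the terminal transferase of early lymphoid cells, had 1.73, 0.966 and 1.63 FPKM in Gdpd3+/+ and 15.8, 12.1 and 51.8 in Gdpd3-/- (log2 difference 3.85, limma adjusted p = 0.0335). Sox4, a transcription factor needed for pro-B cells and also expressed in stem cells, rose by 1.20 (adjusted p = 0.0141). Without Gdpd3-/- replicate 5 the number that rose was 1, against 84 of 23727 genes tested. Igll1, a surrogate light chain, had a log2 difference of -0.95 with overlapping groups. The summed FPKM of these 10 genes was 25.1 to 26.9 in Gdpd3+/+ and 60.9, 62.5 and 122 in Gdpd3-/-. In every library that sum was mostly Sox4 and Dntt. Sox4 alone had 17.4, 18.3 and 15.4 FPKM in Gdpd3+/+ and 39.3, 41.1 and 37.1 in Gdpd3-/-.

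Of 12 myeloid genes, 2 fell and 0 rose, with a median log2 difference of -1.24. In 6 every Gdpd3-/- library was below all Gdpd3+/+ libraries, against 8.27% of all genes tested. Csf1r, C1qa, C1qb, Ly6g, Lyz2 and Adgre1 overlapped. Elane, neutrophil elastase, fell by 1.87 (limma adjusted p = 0.0477) and Ltf, lactoferrin, by 1.68 (adjusted p = 0.0374). Both calls were lost when the pseudocount was 1, low genes were kept or the intensity trend was dropped. Without Gdpd3-/- replicate 5, 6 or 7 the number that fell was 5, 1 and 5. Over all genes tested it was 103 of 23727, 179 of 23839 and 1049 of 24056. The list summed to 25001 to 27344 FPKM in Gdpd3+/+ and 7739 to 12398 in Gdpd3-/-. Its part in the differences of the 10 genes was not tested.

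By limma, no gene was called among 10 T and NK cell markers tested, 7 plasmacytoid dendritic cell markers, 8 red cell markers, 15 skeletal muscle markers or 14 markers of long-term haematopoietic stem cells. At an unadjusted p under 0.05 the counts were 1, 4, 1, 15 and 6, against 5493 of all 24689 genes tested. Their median log2 differences were -0.21, 0.40, -0.57, 2.85 and 0.18. Without Gdpd3-/- replicate 7 all 15 muscle markers were called higher, as were 2364 of all 24056 genes tested. The summed FPKM of the stem cell markers was 803 to 875 in Gdpd3+/+ and 844 to 1090 in Gdpd3-/-.

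**Figure D5:**
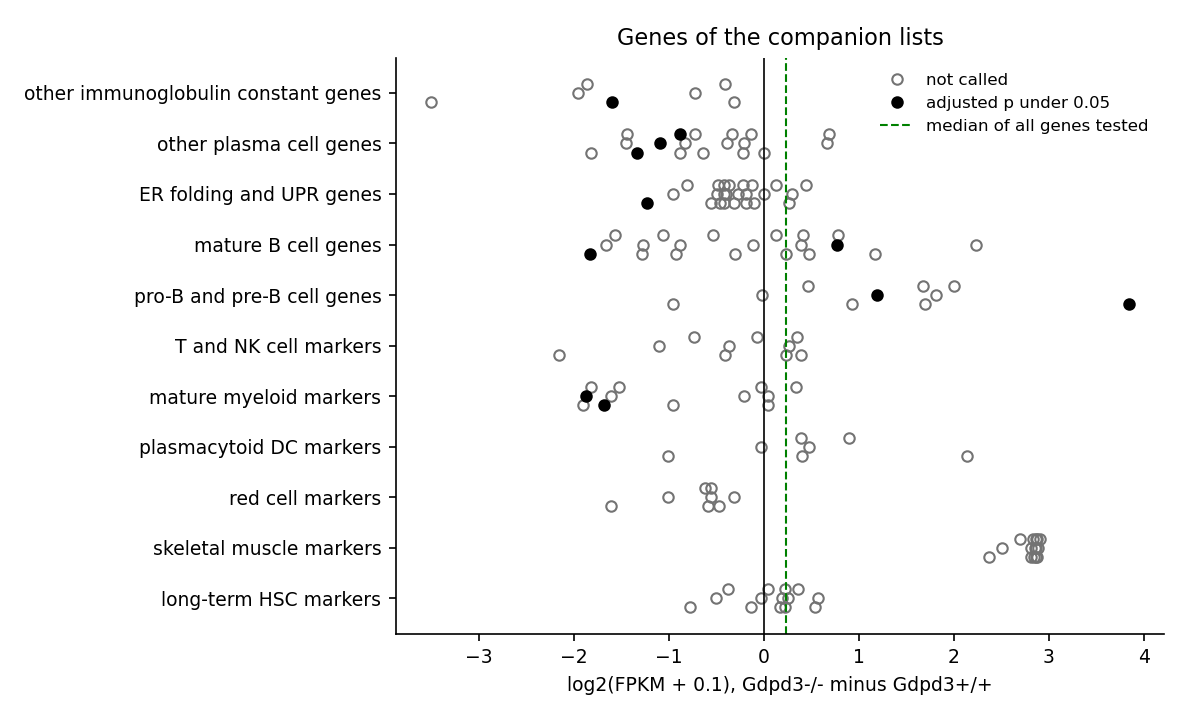
Difference of log2(FPKM + 0.1), Gdpd3-/- minus Gdpd3+/+, for each tested gene of the 11 other lists; filled points passed an adjusted p of 0.05 in limma, and the dashed line is the median of all genes. The other plasma cell genes have a median of -0.68 and the myeloid markers of -1.24, while the pro-B and pre-B genes have 1.44 and the muscle markers 2.85.

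Genes with the profile most like that of Igkc were ranked over 15102 genes by the mean absolute difference of log2(FPKM + 0.1), centred on each gene, over the 6 libraries. The nearest were Ighv11-2 (0.0489), Ighj1 (0.0581), Anln (0.0671), Blm (0.0820) and Igkv14-126 (0.0916). Of the other 9 genes, Xbp1 came nearest to Igkc, at rank 22 with 0.143, and Prdm1 farthest, at rank 13344 with 1.05. For Prdm1 itself the nearest were Gm16093 (0.251), Tnfsf13b (0.277), 6430548M08Rik (0.285), Orc1 (0.288) and Thbd (0.301). The Prdm1 value of Gdpd3-/- replicate 6, 0.0200 FPKM from 4 fragments, weighs heavily in its distance from Igkc and in these neighbours. No ranking was made without that library. For Ighm, examined after its values were seen, the nearest was Pou2af1 (0.0784), the octamer coactivator of B cells.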

How the data were processed

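RNA-Seq of 6 libraries, 3 per genotype, was analysed as deposited. Per the labels and the study's methods, the authors made SMART-Seq libraries from sorted cells, and their processing notes name STAR 2.6.1a, featureCounts 1.6.1, cutadapt 1.16 and the build mm9. The authors deposited FPKM values per gene with a gene length in bases. In each library FPKM times length in kilobases sums to the same total, so FPKM is relative to gene-assigned fragments. The authors also deposited a DESeq2 table, of which only the base mean, a pooled signal, was used, to check the scale of the inferred depth. Its fold changes and p-values, which hold the authors' own comparison, were not used. Whether counting used strand is not given in the sources used here, so antisense reads cannot be told apart.

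Depth was inferred from the smallest steps of FPKM times length, where 47.2% to 55.2% of values were whole fragments (tolerance 0.001) and the rest were fractions, so no count model was used. Values were tested as log2(FPKM + 0.1) with limma 3.58.1 in R 4.3.3, with an intensity trend, over the 24689 genes whose FPKM averaged 0.05 or more, and p-values were adjusted by Benjamini-Hochberg over all of them. A fold on this scale understates the change of low genes. The study describes its samples as biologically independent. Symbols were matched by identifier for 32350 of 36976 genes (87.5%). The script was tested on simulated data.

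The 10 genes, the 11 other lists (152 genes, 148 in the table), the motifs and the tests were chosen with earlier results of these data known. Genes outside the 10 could be named where they were called (at most 4 per list) or among the 3 with the highest mean FPKM of a list, with Gdpd3 and the 5 genes most like Igkc and Prdm1. Pax5, Slamf1, Procr, Zbtb20, Il6ra, Igll1, the overlapping myeloid genes and Pou2af1 were named by function or after their values were seen. Other pseudocounts, filters, scalings and variance models, and leaving out each library, were run as alternatives. The value of 1 gene of the other lists is not reported here.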

Additional observations from a re-analysis of the deposited data

How the results depend on the processing

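All 10 genes stayed below the median of all genes under every alternative except quantile normalization, under which 9 did. There the difference of Igkc becomes 0, because the highest gene of every library is given 1 value, and that of Ighm -0.44. The median of all genes moved from 0.24 to 0.07 under median-ratio scaling, -0.01 under quantile normalization and 0.13 with the total taken without immunoglobulin genes. Of the 10, which were selected on this contrast, so that their calls support nothing, 2 were called lower: 1 with no filter, 4 with a mean FPKM of at least 1, 0 without the intensity trend, and 0 to 7 with 1 library left out. Over all genes, 152 were lower: 101 with a pseudocount of 1, 88 with no filter, 231 with median-ratio scaling, 74 without the trend, and 0 to 1049 with 1 library left out. Over all genes, 270 were higher: 124 with a pseudocount of 1, 125 with no filter, 471 with a mean FPKM of at least 1, 114 with median-ratio scaling, 119 with quantile normalization, 129 with the total without immunoglobulin genes, 79 without the trend, 124 with array weights, and 0 to 2364 with 1 library left out. In the other lists 8 were lower: 5 with a pseudocount of 1, 3 with no filter, 15 with a mean FPKM of at least 1, 0 without the trend, and 0 to 34 with 1 library left out. There 3 were higher: 1 with a pseudocount of 1, 1 with no filter, 0 without the trend, and 0 to 20 with 1 library left out. The lowest counts came from leaving out a Gdpd3+/+ library and the highest from leaving out Gdpd3-/- replicate 7. The ratio of chains to factors, -0.18 from sums, was -0.26 to -0.09 with 1 library left out, 0.63 from mean log2 values, and 0.31 from mean log2 values without Gdpd3-/- replicate 6, an alternative chosen after seeing the data. The sum weights highly expressed genes and the mean weights all alike. No paired analysis was possible because the genotypes share no replicate number. The Gdpd3-/- libraries had less depth than the Gdpd3+/+ libraries, and Prdm1 in replicate 6 rests on 4 fragments.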
